A study of Arabidopsis thaliana with 4 samples.

Results

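The WRKY family of transcription factors was followed in guard cells sorted from Arabidopsis thaliana at 12 days post germination. The 49 WRKY genes described here were chosen by gene identifier, as members of the family, out of 33602 genes in the table, when the results of the same comparison of genotypes were already known. No minimum on the values is given for the choice, and 4 of the 49 were at 0 in every library. A mean of 1 TPM or more was reached by 36 of the 49 and by 3 of 23 other WRKY genes. The 49 therefore do not stand for the whole family. One genotype is fama-1 carrying FAMAp:FAMA-LGK, a mutant of the guard cell transcription factor FAMA rescued with a transgene under the FAMA promoter whose product is altered in its motif for the retinoblastoma-related protein, hereafter FAMA-LGK. The other is Wild Type, hereafter WT. The series calls the guard cells of FAMA-LGK reprogrammed and those of WT fully differentiated. Each genotype had 2 libraries, from guard cells that were sorted out of protoplasts of aerial tissue, and no label ties them to separate plantings. The p-values given therefore rest only on how far these libraries spread, which may be technical. For each gene, that spread was pooled with the spread of other genes.

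WRKY factors carry a DNA-binding domain named after its conserved amino acids and bind the W box, TTGACC or TTGACT, in promoters, many of them those of other WRKY genes. They are divided into classes by the number of domains and the type of zinc finger: I (a pair of domains), IIa to IIe and III. Most are known from defence, wounding and senescence, some from hormone and phosphate responses, and a few from development. In defence, receptors at the cell surface activate MAP kinase cascades, which phosphorylate WRKY factors or release them from VQ proteins that bind them. In leaves, several act in the response of guard cells to abscisic acid and light.

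Values are TPM, a level corrected for the length of the gene and for library size. Nuclear genes other than ribosomal RNA held an estimated 6207284 and 7839577 reads in FAMA-LGK replicates 1 and 2, and 8061857 and 8761594 in WT replicates 1 and 2. All genes held an estimated 12055028 and 12032119 reads in FAMA-LGK and 12602126 and 14338220 in WT. The TPM values include organelle genes and ribosomal RNA, so they also depend on the nuclear share, which was lowest in FAMA-LGK replicate 1. FAMA transcripts were at 94.3 and 81.2 TPM in FAMA-LGK and at 66.1 and 65.6 in WT (not called, adjusted p = 0.224 by limma), and the table does not tell the transgene from the native gene. Of 10 guard cell markers, 6 were lower in FAMA-LGK, GC1, TGG1, TGG2, SLAC1, HT1 and GORK. MYB60 was higher, and FAMA, KAT1 and OST1 were not called. Over all genes tested, 6.14% were called lower and 6.45% higher. The 10 markers summed to 2932 and 2576 TPM in FAMA-LGK, against 17960 and 13860 in WT. TGG1 alone was at 2652 and 2313 TPM in FAMA-LGK and at 16420 and 12490 in WT. Trichome markers summed to 0.600 and 0.874 TPM in FAMA-LGK and to 1.20 and 0.511 in WT, with ETC1 at 0 throughout, and phloem and xylem markers to 1.13 and 3.48 TPM, against 0.859 and 1.93. The 6 mesophyll markers summed to 352 and 386 TPM in FAMA-LGK and to 379.9 and 427 in WT. The 6 markers of epidermis and pavement cells summed to 326 and 278 TPM in FAMA-LGK, against 90.2 and 63.3 in WT. Of the 5 tested, 4 were called higher, beside 6.45% of all genes tested. The part of these other cells in the WRKY values was not tested, and in sorted bulk samples more cells of a type and more RNA per cell cannot be told apart.

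W boxes were looked for on both strands in the 250 bases before the annotated start of each gene, in the RefSeq TAIR10.1 genome, in which all 49 genes were found. TTGACC or TTGACT stood in 18 of the 49 windows (36.7%), against 28.4% of the 27443 protein-coding genes, and at least 2 copies stood in 9 (18.4%), against 6.18%. The core TTGAC, which both forms contain, stood in 55.1% of the 49 windows and 44.9% of all. Shown are the windows with a W box among the 3 genes with the highest and the 3 with the lowest log2 fold change of TPM + 1 between the genotypes, and that of the WRKY gene with the highest level, WRKY33. They are written 5' to 3' on the strand of the gene, up to the base before its annotated start, with W boxes in capitals on either strand.
WRKY28: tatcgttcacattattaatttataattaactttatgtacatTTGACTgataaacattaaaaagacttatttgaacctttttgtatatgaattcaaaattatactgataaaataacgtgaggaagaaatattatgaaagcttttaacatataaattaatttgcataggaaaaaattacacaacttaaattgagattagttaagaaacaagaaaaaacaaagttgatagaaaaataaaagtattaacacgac
WRKY11: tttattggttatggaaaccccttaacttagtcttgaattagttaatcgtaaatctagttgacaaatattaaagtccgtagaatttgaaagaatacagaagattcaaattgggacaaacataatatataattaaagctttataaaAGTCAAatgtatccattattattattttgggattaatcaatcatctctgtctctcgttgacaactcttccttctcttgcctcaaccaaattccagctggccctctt
WRKY45: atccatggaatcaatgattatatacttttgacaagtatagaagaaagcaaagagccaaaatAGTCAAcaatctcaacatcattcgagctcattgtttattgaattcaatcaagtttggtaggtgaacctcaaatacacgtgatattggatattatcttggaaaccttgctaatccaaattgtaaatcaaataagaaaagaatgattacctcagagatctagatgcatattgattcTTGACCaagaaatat
WRKY33: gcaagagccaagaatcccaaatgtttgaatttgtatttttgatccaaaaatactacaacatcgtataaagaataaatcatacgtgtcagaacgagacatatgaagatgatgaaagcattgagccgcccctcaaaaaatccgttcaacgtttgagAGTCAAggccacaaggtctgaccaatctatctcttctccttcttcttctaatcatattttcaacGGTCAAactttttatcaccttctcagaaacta

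The windows lie at chr4:10060964-10061213 for WRKY28 (plus strand), chr4:15291935-15292184 for WRKY11 (minus strand), chr3:327413-327662 for WRKY45 (minus strand) and chr2:16107985-16108234 for WRKY33 (plus strand) of TAIR10.1. Both WRKY45 and WRKY33 have a pair of boxes, that of WRKY33 starting 96 and 32 bases before the gene, and WRKY11 and WRKY28 have 1 each. The windows of WRKY18, WRKY42 and WRKY23, the other 3 of the 6 genes, hold neither form. Among WRKY genes at a mean of 1 TPM or more, 16 of 36 windows held a W box (44.4%), against 2 of 13 (15.4%) among those under it. It stood in 3 of the 12 genes called higher below, in 3 of the 6 called lower and in 10 of the 18 not called, beside 28.4% of all protein-coding genes. The core TTGAC stood in 7 of the 12, in 5 of the 6 and in 10 of the 18, beside 44.9%. Whether these shares differ was not tested.

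Of the 49 WRKY genes, 36 were at a mean of 1 TPM or more over the 4 libraries, 22 at 10 or more and 9 at 100 or more. The lowest inside the minimum were WRKY29 (AT4G23550) at a mean of 1.38 TPM, WRKY70 at 1.70 and WRKY69 (AT3G58710) at 1.94, and the nearest outside was WRKY51 (AT5G64810) at 0.495. In FAMA-LGK 35 reached a mean of 1 TPM and in WT 35, with 34 reaching it in both: WRKY42 fell short in FAMA-LGK only and WRKY70 in WT only. Summed over the 49 genes, WRKY transcripts were at 2753 and 2623 TPM in FAMA-LGK and at 3060 and 2318 TPM in WT, so the sums of the genotypes overlapped.

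The 5 highest WRKY genes held 64.0% to 66.4% of that sum in FAMA-LGK and 65.5% to 68.7% in WT. WRKY33 (AT2G38470), which activates the synthesis of the antimicrobial compound camalexin and is phosphorylated by MPK3 and MPK6, was the highest in every library, and ranked 137 by mean TPM among all 15143 genes tested. It stood at 537 and 488 TPM in FAMA-LGK and at 1018 and 635 in WT. The FAMA-LGK values lay below both WT values, but the WT libraries differed more from each other than the lower of them from FAMA-LGK, and the log2 fold change of -0.65 (SE 0.27, adjusted p = 0.152 by limma) did not pass the test. WRKY15 (AT2G23320), known from responses to reactive oxygen, was at 286 and 234 TPM in FAMA-LGK and at 369.9 and 333 in WT (-0.44 log2 units, adjusted p = 0.222 by limma). WRKY75 (AT5G13080), a factor of phosphate starvation and leaf senescence, was at 150.1 and 161 TPM in FAMA-LGK and at 228 and 161 in WT, where replicate 2 was level with FAMA-LGK (adjusted p = 0.435 by limma). The remaining genes of the first 5 by mean level, WRKY6 and WRKY11, are described with their classes.

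**Figure D1:**
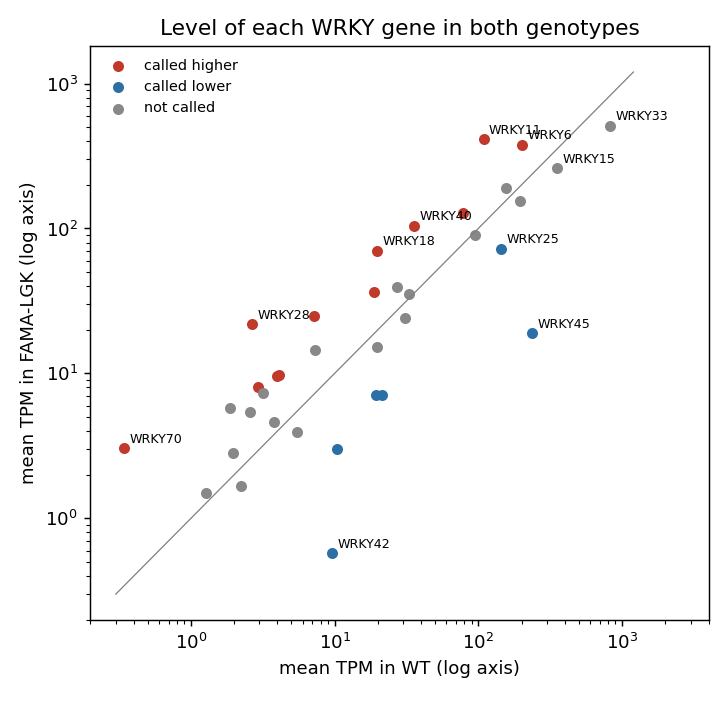
Mean TPM of the 36 WRKY genes at a mean of 1 TPM or more, in WT (x axis, log) and FAMA-LGK (y axis, log); each point is 1 gene, the mean of 2 libraries, coloured by its call, and the line marks equal levels. WRKY33 is highest in both genotypes, WRKY45 and WRKY42 lie far below the line and WRKY28, WRKY70 and WRKY11 above it.

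The other 13 were WRKY7, WRKY31, WRKY35, WRKY36, WRKY38, WRKY44, WRKY51, WRKY54, WRKY55, WRKY57, WRKY60, WRKY61 and WRKY65, none over 1.22 TPM or an estimated 14 reads in any library. WRKY35, WRKY36, WRKY38 and WRKY61 were at 0 in all libraries. WRKY44 (AT2G37260), which as TTG2 directs trichome and seed coat development, had an estimated 1 and 2 reads in FAMA-LGK and 5 and 0 in WT. WRKY54 (AT2G40750), a partner of WRKY70, had 13 and 1 in FAMA-LGK and 0 and 0 in WT. WRKY60 (AT2G25000), the remaining gene of class IIa, had 0 and 0 in FAMA-LGK and 0 and 1 in WT.

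Of the 36 WRKY genes tested, 12 were higher and 6 lower in FAMA-LGK and 18 were not called (limma on log2(TPM + 1), Benjamini-Hochberg adjustment over all genes tested, threshold 0.05). Over all 15143 genes tested, 12.6% were called, 6.45% as higher and 6.14% as lower; since the genes were chosen with this comparison known, nothing is read from the difference in shares. The median log2 fold change was 0.34 over these 36 genes and 0.06 over all genes tested. In 18 of the 36 both FAMA-LGK values lay above both WT values, and in 11 both lay below, against 31.6% and 25.7% of all genes tested. Every WRKY call needs the pair of WT libraries: leaving out replicate 1 or replicate 2 of WT, limma called 0 genes of the 15143, where 2675 and 2365 had an unadjusted p below 0.05; the lone WT library is then assumed to vary like those of FAMA-LGK. Without FAMA-LGK replicate 1, 14 WRKY genes were called, and without FAMA-LGK replicate 2, 11. The 10 that kept their call in both of these fits were WRKY8, WRKY11, WRKY18, WRKY25, WRKY28, WRKY30, WRKY40, WRKY42, WRKY45 and WRKY47.

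**Figure D2:**
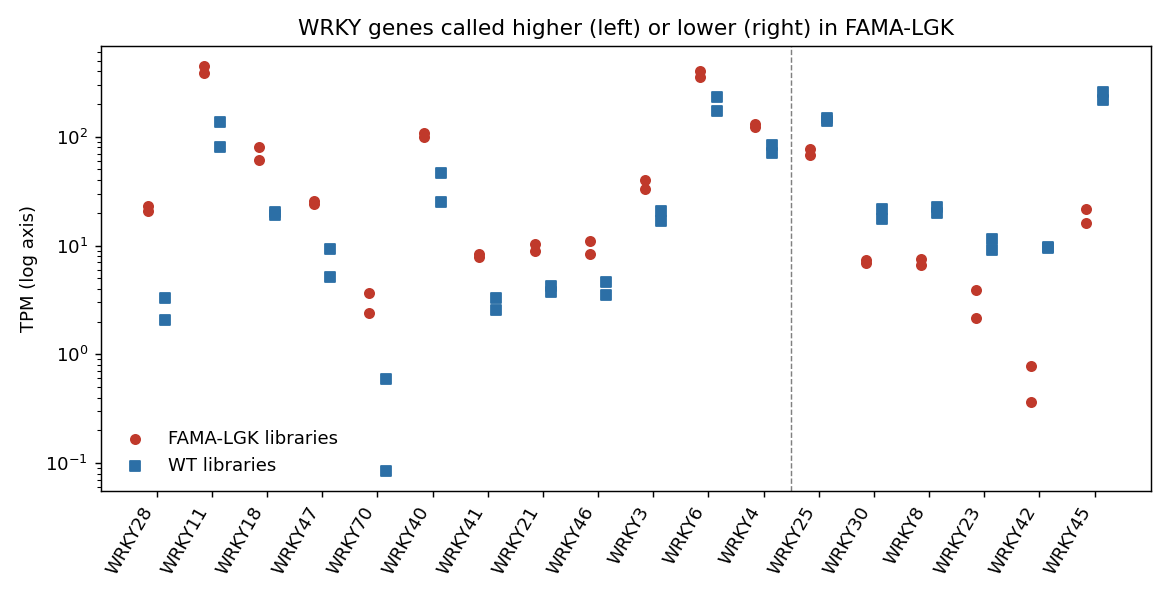
TPM (y axis, log) of the 18 WRKY genes called, each library as 1 point, FAMA-LGK circles left of WT squares, ordered from the highest to the lowest log2 fold change; the dashed line divides the 12 higher genes from the 6 lower ones. In each of the 18 the libraries of the genotypes do not overlap, which their choice by call favours. Over all genes tested, both FAMA-LGK values lay above both WT values in 31.6% and below them in 25.7%. The WT squares lie apart for WRKY70, WRKY40, WRKY11 and WRKY47.

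**Figure D3:**
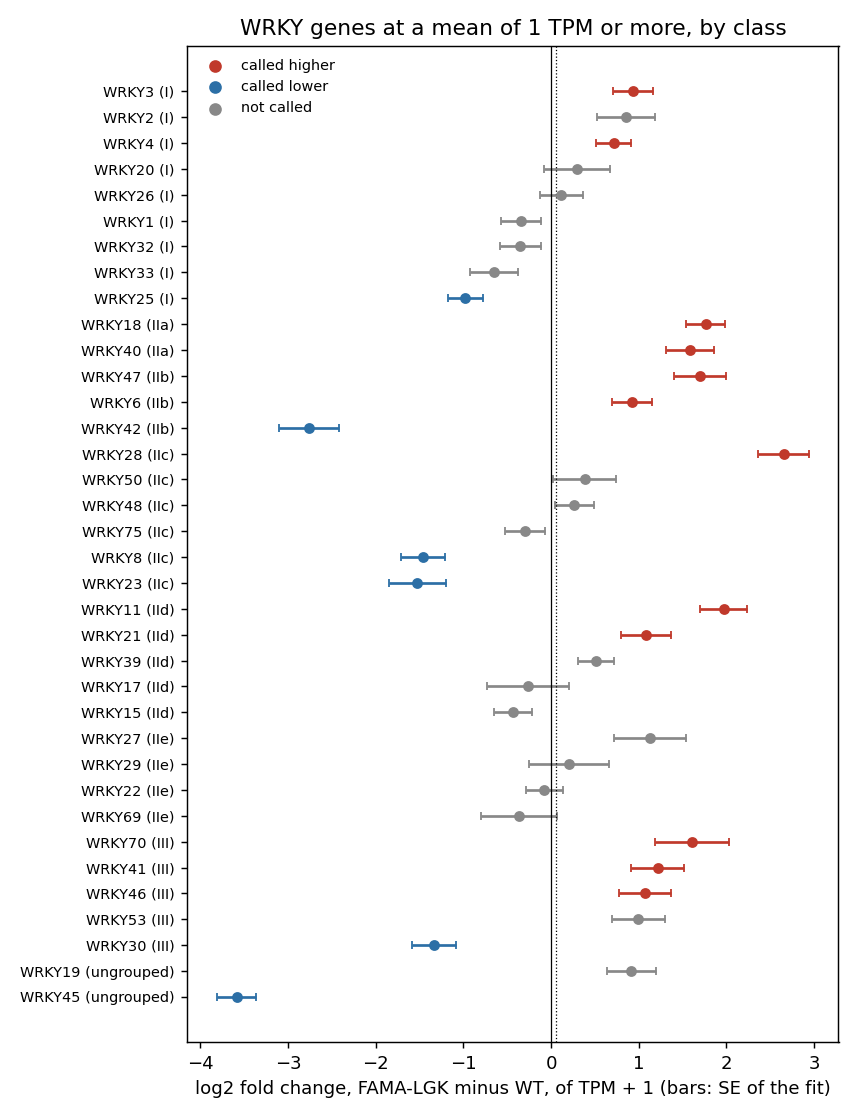
Log2 fold change of TPM + 1, FAMA-LGK minus WT (x axis), of the 36 WRKY genes tested, grouped by class (y axis); bars are the SE of the fit over 2 libraries per genotype, the solid line is 0 and the dotted line the median of all genes tested, 0.06. Calls in both directions stand side by side in classes I, IIb, IIc and III, and WRKY45 and WRKY19 stand apart as ungrouped.

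The class IIa genes WRKY18 and WRKY40, whose products bind each other and act together in defence and in abscisic acid responses, were both higher in FAMA-LGK. WRKY18 (AT4G31800) was at 79.9 and 60.5 TPM in FAMA-LGK and at 19.1 and 20.5 in WT. Its log2 fold change was 1.76 (SE 0.23, adjusted p = 0.00105 by limma). WRKY40 (AT1G80840) was at 109 and 100.2 TPM in FAMA-LGK, against 46.0 and 25.3 in WT, where replicate 1 lay well above replicate 2 but far below both FAMA-LGK libraries. Its log2 fold change was 1.59 (SE 0.28, adjusted p = 0.00563 by limma).

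In class IIb, 2 genes were higher, 1 was lower and 3 were under the minimum. WRKY6 (AT1G62300), a factor of senescence, defence and phosphate transport, was at 399.8 and 356 TPM in FAMA-LGK and at 230.5 and 172 in WT, and ranked 3 of the family in FAMA-LGK (0.92 log2 units, SE 0.23, adjusted p = 0.0278 by limma; 0.0762 without FAMA-LGK replicate 1). WRKY42 (AT4G04450), a close relative of WRKY6 and, like it, a known repressor of the phosphate exporter gene PHO1 in roots, moved the other way. WRKY42 was at 0.786 and 0.361 TPM in FAMA-LGK, an estimated 13 and 6 reads, against 9.67 and 9.46 TPM in WT, 163 and 181 reads. The ratio of mean TPM of WT over FAMA-LGK was 16.7 and the log2 fold change -2.76 (SE 0.34, adjusted p = 8.6e-04 by limma). WRKY47 (AT4G01720) was at 23.9 and 25.8 TPM in FAMA-LGK and at 9.36 and 5.12 in WT (1.70 log2 units, SE 0.29, adjusted p = 0.00557 by limma).

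Class IIc held the WRKY gene with the highest log2 fold change of TPM + 1, WRKY28 (AT4G18170), an activator of the salicylic acid synthesis gene ICS1. WRKY28 was at 20.6 and 23.0 TPM in FAMA-LGK, against 3.26 and 2.07 in WT (2.65 log2 units, SE 0.29, adjusted p = 4.2e-04 by limma). The ratio of its mean TPM in FAMA-LGK over WT was 8.17, below the 8.97 of the low WRKY70. ICS1 itself was at 0.714 and 0.489 TPM in FAMA-LGK and at 0.0876 and 0.270 in WT, under the minimum for the test. Another 2 of the genes assigned to the class here were lower. WRKY8 (AT5G46350), known from responses to bacteria, viruses and salt, was at 6.68 and 7.46 TPM in FAMA-LGK and at 22.7 and 19.8 in WT (-1.46 log2 units, SE 0.25, adjusted p = 0.00485 by limma). WRKY23 (AT2G47260), which acts with auxin in embryo and root development, was at 3.89 and 2.14 TPM in FAMA-LGK and at 11.4 and 9.20 in WT (-1.52 log2 units, SE 0.33, adjusted p = 0.0154 by limma; 0.0549 without FAMA-LGK replicate 2). WRKY48 (AT5G49520), a repressor of basal defence and one of the highest WRKY genes, was at 162 and 216 TPM in FAMA-LGK and at 149 and 162 in WT, values that overlapped, and WRKY50, WRKY48 and WRKY75 were not called.

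Class IId factors bind calmodulin, and WRKY11 and WRKY17 are known as related repressors of basal defence. WRKY11 (AT4G31550) was at 445 and 384 TPM in FAMA-LGK, against 138 and 79.8 in WT, which made it the second highest WRKY gene in FAMA-LGK and the eighth in WT. Its log2 fold change was 1.97 (SE 0.27, adjusted p = 0.00156 by limma). WRKY17 (AT2G24570) was low, at 5.16 and 2.75 TPM in FAMA-LGK and at 8.35 and 2.58 in WT, and its libraries overlapped (adjusted p = 0.758 by limma). WRKY21 (AT2G30590) was at 8.88 and 10.4 TPM in FAMA-LGK and at 4.28 and 3.73 in WT (1.09 log2 units, SE 0.29, adjusted p = 0.0357 by limma). It was not called without either FAMA-LGK library. WRKY39 (AT3G04670), known from heat responses, was at 39.8 and 39.2 TPM in FAMA-LGK and at 27.5 and 27.1 in WT, without overlap, and did not pass the test (0.51 log2 units, adjusted p = 0.140 by limma).

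In class I the close relatives WRKY3 and WRKY4, known from defence against fungi that kill their host, were higher. WRKY3 (AT2G03340) was at 33.3 and 40.1 TPM in FAMA-LGK and at 16.8 and 20.7 in WT (0.93 log2 units, SE 0.23, adjusted p = 0.0279 by limma; not called without FAMA-LGK replicate 2). WRKY4 (AT1G13960) was at 124 and 132 TPM in FAMA-LGK and at 83.8 and 71.6 in WT (log2 fold change 0.71, SE 0.20), and its limma adjusted p of 0.0480 lay just inside the threshold and outside it without either FAMA-LGK library. WRKY25 (AT2G30250), a relative of WRKY33 that acts with it in heat and defence, was the class I gene that fell. WRKY25 was at 67.8 and 76.9 TPM in FAMA-LGK, against 148.5 and 138 in WT (-0.98 log2 units, SE 0.20, adjusted p = 0.0126 by limma). WRKY2 (AT5G56270), which acts in the polarity of the zygote and in germination, was at 5.28 and 5.57 TPM in FAMA-LGK and at 3.10 and 2.08 in WT and was not called (0.86 log2 units, adjusted p = 0.121 by limma). WRKY1, WRKY20, WRKY26 and WRKY32 had log2 fold changes between -0.35 and 0.29 without a call.

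Class IIe held no called gene. WRKY22 (AT4G01250), a target of the cascade that starts from the flagellin receptor, was at 94.0 and 86.4 TPM in FAMA-LGK and at 105.5 and 85.6 in WT, with a log2 fold change of -0.08. Its partner WRKY29 was at 1.75 and 1.23 TPM in FAMA-LGK and at 0.505 and 2.04 in WT. WRKY27 (AT5G52830), known from bacterial wilt, was at 3.29 and 8.30 TPM in FAMA-LGK and at 1.94 and 1.83 in WT, above WT in both libraries but with FAMA-LGK replicate 2 far above replicate 1 (1.13 log2 units, adjusted p = 0.105 by limma). It was called without FAMA-LGK replicate 1 (adjusted p = 0.0333 by limma).

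Of the 5 class III genes tested, 3 were higher and 1 was lower. WRKY70 (AT3G56400), which sets the balance of salicylic acid and jasmonate responses, was at 2.42 and 3.70 TPM in FAMA-LGK, an estimated 28 and 43 reads, and at 0.0848 and 0.597 in WT, 1 and 8 reads. Its log2 fold change was 1.61 (SE 0.42, adjusted p = 0.0349 by limma; not called without FAMA-LGK replicate 2). WRKY46 (AT2G46400), known from light-dependent opening of stomata and from drought, was at 8.40 and 10.95 TPM in FAMA-LGK and at 4.63 and 3.53 in WT (1.07 log2 units, SE 0.30, adjusted p = 0.0446 by limma; not called without either FAMA-LGK library). WRKY30 (AT5G24110), which is induced early in stress, was the class III gene that fell, at 7.30 and 6.97 TPM in FAMA-LGK and at 21.5 and 17.6 in WT (-1.33 log2 units, SE 0.25, adjusted p = 0.00847 by limma).

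The sister genes WRKY41, known from defence and seed dormancy, and WRKY53, known from senescence, have values that are uncertain, because each overlaps a gene on the opposite strand and whether reads were counted by strand is not given in the sources used here. WRKY41 (AT4G11070) was at 7.79 and 8.35 TPM in FAMA-LGK and at 3.29 and 2.56 in WT (1.21 log2 units, SE 0.30, adjusted p = 0.0287 by limma; not called without either FAMA-LGK library). It shares 491 bases, 41.7% of its annotated exon length, with 3xHMG-box1 (AT4G11080), a chromatin protein gene, which was at 14.0 and 16.9 TPM in FAMA-LGK and at 3.98 and 3.02 in WT (1.87 log2 units, adjusted p = 0.00265 by limma). WRKY53 (AT4G23810) was at 7.16 and 7.45 TPM in FAMA-LGK and at 2.80 and 3.56 in WT, and was not called (1.00 log2 units, adjusted p = 0.0595 by limma). It shares 311 bases, 20.5%, with 3xHMG-box2 (AT4G23800), which was at 52.2 and 43.2 TPM in FAMA-LGK and at 24.3 and 9.54 in WT (1.57 log2 units, adjusted p = 0.0205 by limma). Spread evenly over its exons, the reads of 3xHMG-box1 would put 44.9 and 54.5 on the stretch shared with WRKY41 in FAMA-LGK and 13.0 and 11.2 in WT, beside an estimated 79 and 85 reads of WRKY41 in FAMA-LGK and 34 and 30 in WT. The same count for 3xHMG-box2 on the stretch shared with WRKY53 was 169 and 141 in FAMA-LGK and 80.1 and 35.8 in WT, beside an estimated 113 and 118 reads of WRKY53 in FAMA-LGK and 45 and 65 in WT. It was above all reads of WRKY53 in every library except WT replicate 2. The part of shared reads in the WRKY41 and WRKY53 values was not tested. No other WRKY gene called shares more than 3.85% of its exon length with another gene.

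**Figure D4:**
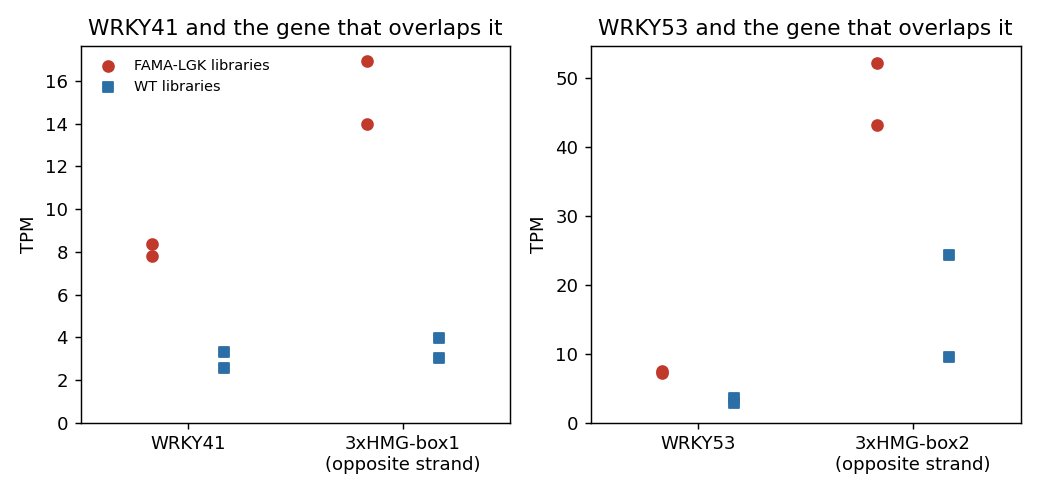
TPM (y axis, from 0) of WRKY41 and WRKY53 and of the gene that overlaps each on the opposite strand, with each library as 1 point, FAMA-LGK circles left of WT squares. In both pairs the WRKY gene and its neighbour are higher in both FAMA-LGK libraries than in both WT libraries, and the neighbour has the higher level in FAMA-LGK.

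WRKY45 (AT3G01970), known as an activator of phosphate uptake and of senescence, had the lowest log2 fold change of TPM + 1 among the WRKY genes tested, whereas WRKY42 had the larger ratio of mean TPM. WRKY45 was at 16.1 and 21.7 TPM in FAMA-LGK, against 256 and 216 in WT, where it was the third highest WRKY gene, and it ranked 18 in FAMA-LGK. The ratio of mean TPM of WT over FAMA-LGK was 12.5 and the log2 fold change -3.59 (SE 0.23, adjusted p = 1.9e-05 by limma). WRKY75, which belongs to the same phosphate and senescence responses, was not called, as given above. WRKY19 (AT4G12020), whose product joins a WRKY domain to a protein kinase and a disease resistance receptor, was at 13.5 and 15.3 TPM in FAMA-LGK and at 8.65 and 5.92 in WT (0.92 log2 units, SE 0.28, adjusted p = 0.0582 by limma). It did not pass the test, but did under 5 of the alternatives, among them median-ratio scaling (adjusted p = 0.0471). WRKY45 and WRKY19 were not assigned to a class here, so the counts by class leave them out.

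A further 23 WRKY genes outside the 49 were looked up: 11 were at 0 in every library and 3 reached a mean of 1 TPM. WRKY63 (AT1G66600), also named ABO3 and known from abscisic acid responses of seedlings and stomata, was at 3.88 and 3.07 TPM in FAMA-LGK, an estimated 34 and 27 reads, and at 0.112 and 0.0987 in WT, 1 read each (2.01 log2 units, SE 0.40, adjusted p = 0.0104 by limma). Its nearest copies WRKY64 and WRKY67 are 83.3% and 78.6% identical to it over 75.8% and 81.9% of its exons. WRKY64 was at 0.1279 and 0.1275 TPM in FAMA-LGK and at 0 and 0 in WT. WRKY67 was at 0 and 0.900 TPM in FAMA-LGK and at 0 and 1.17 in WT. WRKY52 (RRS1, AT5G45260) and WRKY16 (AT5G45050), disease resistance receptor genes with a WRKY domain, were not called, at log2 fold changes of 0.61 and 0.33.

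Among the 10 MAP kinase genes tested, 2 rose, 1 fell and 7 had no call, beside 12.6% called over all genes tested (6.45% higher, 6.14% lower); without FAMA-LGK replicate 2, 1 rose. MPK4, the kinase that holds WRKY33 in a complex with the VQ protein MKS1, was at 45.2 and 38.7 TPM in FAMA-LGK, against 82.6 and 113 in WT (-1.19 log2 units, SE 0.23, adjusted p = 0.00909 by limma). MKK1, a kinase above MPK4, was at 4.78 and 5.93 TPM in FAMA-LGK and at 0.290 and 0.663 in WT (2.11 log2 units, adjusted p = 0.00593 by limma), and MKK9 rose by 1.04 log2 units (adjusted p = 0.0261 by limma). MPK3 and MPK6, the kinases that phosphorylate WRKY33, were not called, at log2 fold changes of 0.06 and -0.28.

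Of 10 VQ protein genes tested, 1 was higher and 2 were lower, beside the same 6.45% and 6.14% of all genes; without FAMA-LGK replicate 1, 1 was lower. The lower ones, SIB1 and MKS1, encode partners of WRKY33. SIB1 was at 21.2 and 23.6 TPM in FAMA-LGK, against 69.1 and 72.8 in WT (-1.62 log2 units, SE 0.21, adjusted p = 0.00105 by limma). MKS1 was at 7.73 and 10.8 TPM in FAMA-LGK, against 18.7 and 20.3 in WT (-1.01 log2 units, adjusted p = 0.0316 by limma). SIB2 was not called, at 5.86 and 6.98 TPM in FAMA-LGK and 4.06 and 6.66 in WT (0.25 log2 units, adjusted p = 0.660 by limma). VQ12 was at 249 and 253 TPM in FAMA-LGK and at 109 and 64.2 in WT (1.57 log2 units, adjusted p = 0.00430 by limma). Of 9 pattern receptor and co-receptor genes tested, 2 were higher: the flagellin receptor gene FLS2, at 9.53 and 8.95 TPM in FAMA-LGK and at 2.96 and 1.62 in WT (adjusted p = 0.0103 by limma), and BKK1, at 19.8 and 24.6 TPM in FAMA-LGK and at 12.1 and 9.77 in WT (adjusted p = 0.0345 by limma). Against 6.45% of all genes called higher, this receptor count was 1 without FAMA-LGK replicate 2 and 5 by limma-voom on estimated reads.

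Of 17 known outputs of WRKY factors in immunity, 9 were under the minimum. CYP71A13 of camalexin synthesis and the defence genes PR1, PR2 and SIRK were at 0 in all libraries, and PAD3, the last enzyme of camalexin synthesis, was at 0.925 and 0.749 TPM in FAMA-LGK and at 0.908 and 1.35 in WT. Of the 8 tested, 1 was higher, NHL10, at 69.2 and 61.6 TPM in FAMA-LGK and at 19.8 and 7.13 in WT (2.35 log2 units, SE 0.38, adjusted p = 0.00350 by limma). That is 12.5% of the 8, against 12.6% of all genes called, and the count was 2 without FAMA-LGK replicate 2, 3 without a variance trend, with the replicate block or after removal of organelle genes and ribosomal RNA, and 4 by limma-voom. CYP81F2, an enzyme of indole glucosinolate synthesis, was at 3.45 and 1.33 TPM in FAMA-LGK, against 0.0547 and 0.0963 in WT (adjusted p = 0.0528 by limma, not called). SARD1, an activator of ICS1, was at 2.101 and 2.206 TPM in FAMA-LGK, against 0.223 and 0.245 in WT (adjusted p = 0.0570 by limma, not called).

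Protoplasts of both genotypes were made before the sort, and genes of wounding, touch and jasmonate were set beside the WRKY genes. Of 24 tested, none of them a WRKY gene, 10 were higher, 2 were lower and 12 were not called, with a median log2 fold change of 0.66, beside 12.6% called and a median of 0.06 over all genes tested. Their summed level was 2798 and 3016 TPM in FAMA-LGK and 4035 and 2968 in WT. Without FAMA-LGK replicate 1 the list had 1 gene called lower. The touch genes TCH2, TCH3 and TCH4 of the list were higher, as was ERF5. ZAT10, ZAT12, ERF6, ERF104, RRTF1, MYC2, CZF1 and SZF1 were not called, and VSP1 and VSP2 were under the minimum. Among the genes of jasmonate synthesis in the list, LOX3, LOX4, AOS, AOC1, AOC2 and AOC3 were higher. OPR3 was not called (31.7 and 34.0 TPM in FAMA-LGK, against 30.9 and 33.3 in WT), and LOX2 was under the minimum. LOX3 was at 168.5 and 176 TPM in FAMA-LGK, against 46.2 and 39.5 in WT (1.99 log2 units, adjusted p = 3.0e-04 by limma). AOC1 was at 194 and 181 TPM in FAMA-LGK, against 10.9 and 17.4 in WT (3.66 log2 units, adjusted p = 3.1e-05 by limma), though reads of AOC1, AOC2 and AOC3, close copies of each other, may have been split among them. Of the 5 JAZ genes, which encode repressors of the jasmonate response, JAZ1 and JAZ7 were lower and JAZ5, JAZ8 and JAZ10 were not called. JAZ1 was at 692 and 776 TPM in FAMA-LGK, against 2419 and 1451 in WT (-1.35 log2 units, adjusted p = 0.0172 by limma). The log2 fold change was 0.84 for JAZ5, 0.65 for JAZ10 and -1.38 for JAZ8. The part of this response in the WRKY values was not tested.

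**Figure D5:**
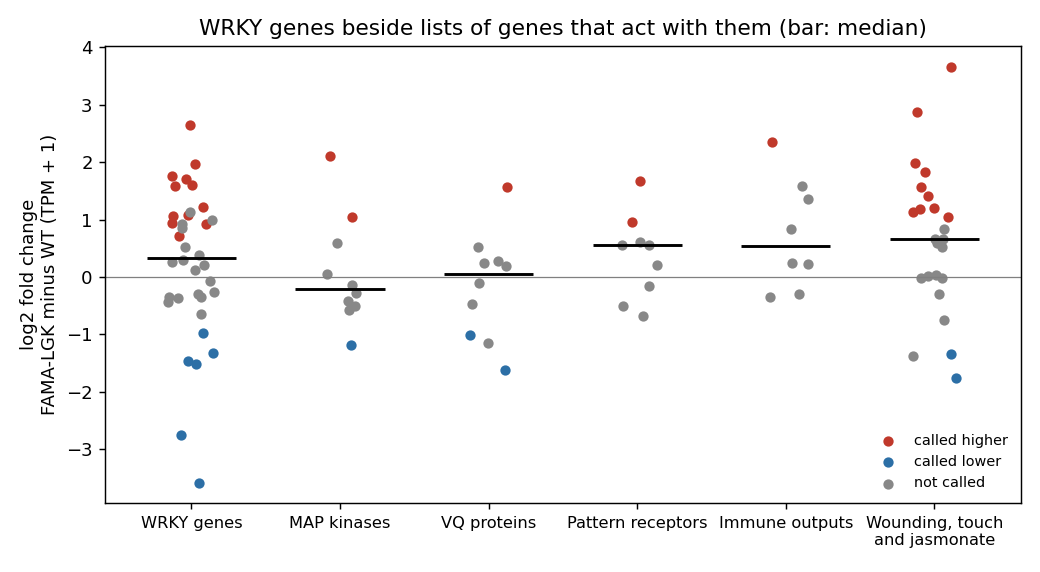
Log2 fold change of TPM + 1, FAMA-LGK minus WT (y axis), of the 36 WRKY genes tested and of the tested genes of 5 lists (x axis); each point is 1 gene coloured by its call and the bar is the median, 0.34 for the WRKY genes and 0.66 for wounding, touch and jasmonate. Each list holds uncalled genes, and the pattern receptors and immune outputs hold no gene called lower.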

How the data were processed

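RNA was measured in sorted guard cells of 2 genotypes with 2 libraries each. The deposited values are TPM, as the authors deposited them; CASAVA 1.8.2, Bowtie2, HTSeq and TAIR10 are named in the submitters' processing notes, with no role. The sources used here do not give how strand and ambiguous reads were handled, or the gene lengths. The test was limma 3.58.1 in R 4.3.3 on log2(TPM + 1) (linear model, eBayes with a trend, two-sided), with Benjamini-Hochberg adjustment over the 15143 genes at a mean of at least 1 TPM; fold changes on this scale understate changes of low genes. The fit had 7.73 prior degrees of freedom. The SE of a gene therefore rests in large part on the spread of other genes. An exact permutation test of 2 against 2 cannot go below p = 0.333 and was not used.

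TPM keeps no library size. The ratios of a gene's values between libraries gave the smallest whole reads behind them, within a tolerance of 0.002. Such reads were found for 19225 of 19262 genes with at least 3 values above 0. Reads of single genes are approximate, can be too low since the smallest were taken, and cover counting error only. Exon overlaps, promoters and names came from RefSeq TAIR10.1 (Python 3.11.15, BLAST+ 2.17.0). No coordinates were taken from the deposited table, which holds none.

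The members, classes and lists were chosen with earlier results of these data known. All 49 genes could be named; full values are given for each called gene, for each with an unadjusted p under 0.05 and for the 5 with the highest mean, and for genes of other lists when called, at most 5 a list. ICS1, CYP71A13, CYP81F2, SARD1, PAD3, PR1, PR2, SIRK, MPK3, MPK6, SIB2, KAT1, OST1, OPR3, LOX2, the JAZ genes and the 3xHMG-box genes were named after their values were seen. So were the TCH, ZAT, ERF and VSP genes, RRTF1, MYC2, CZF1 and SZF1. Alternatives were other pseudocounts, filters, scalings, variance models, a replicate block, each library left out and, chosen after seeing the data, limma-voom on the estimated reads and the counts of calls without WRKY41, WRKY53 and WRKY69.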

Additional observations from a re-analysis of the deposited data

How the results depend on the processing

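All 18 WRKY calls kept their direction under every alternative run. Under the 10 alternatives that leave out no library, 6 kept their call throughout: WRKY8, WRKY11, WRKY18, WRKY28, WRKY42 and WRKY45. Leaving out 1 library gave 0 to 14 WRKY genes called (0 to 8 higher, 0 to 6 lower), 0 to 1685 of all genes (0 to 816 higher, 0 to 1074 lower) and 0 to 18 of the 5 signalling lists. Without a filter on low values, 6 WRKY genes were called (3 higher, 3 lower), 511 of all genes (245 higher, 266 lower) and 8 of the lists, against 18, 1907 and 21; 23227 genes were then tested. Without a variance trend, 7 WRKY genes were higher and 595 of all genes lower. After removal of organelle genes and ribosomal RNA, 1504 of all genes were higher, 67.1% of calls against 51.2%, the median of all genes was 0.24 and that of the WRKY genes 0.57. Limma-voom on estimated reads, chosen after seeing the data, also took its library sizes without organelle genes and ribosomal RNA. It called 1876 genes higher (66.5% of calls) and 17 WRKY genes higher, adding WRKY2, WRKY19, WRKY27, WRKY39 and WRKY53. The median of all genes was then 0.22 and that of the WRKY genes 0.63. The cause of these changes was not tested. The uncalled WRKY17, WRKY20, WRKY22, WRKY26, WRKY29 and WRKY69 changed sign between settings.

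The replicate block called 2844 genes, 1479 of them higher, and 21 WRKY genes. Deviations of libraries with the same number correlated at 0.0782 across genes. Whether libraries with the same number were prepared together is not given by the labels and was not tested. WRKY genes at a mean of at least 2 TPM were 33. Without WRKY41, WRKY53 and WRKY69, 11 were higher and 6 lower.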

Other observations

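PHO1 (AT3G23430), a phosphate exporter gene known in roots as a target that WRKY6 and WRKY42 repress and known in guard cells from the response to abscisic acid, was looked up after the values of the WRKY genes were seen. It was at 0.814 and 0.740 TPM in FAMA-LGK, an estimated 23 and 21 reads, against 17.8 and 13.9 TPM in WT, 512 and 453 reads (log2 fold change -3.23, SE 0.31, limma adjusted p = 2.2e-04). The phosphate transporter gene PHT1;1, a known target of WRKY45 and WRKY42, was at 0 in all libraries, as was PHT1;2. How reads that fit more than 1 gene were handled is not given in the sources used here.

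WT replicate 1 lay above WT replicate 2 in 30 of the 36 WRKY genes tested and in 59.2% of all genes tested. FAMA-LGK replicate 1 lay above FAMA-LGK replicate 2 in 15 of the 36, against 35.9% of all genes tested.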
